A study of Mus musculus with 14 samples.

Results

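Replicates 7 to 12 were set against replicates 1 to 6 of a series of 14 two-colour cDNA arrays that compare wild-type mouse fibroblasts with fibroblasts that lack the gene Ptdsr (phosphatidylserine receptor, now called Jmjd6). Each array carried RNA of Ptdsr-/- fibroblasts in one dye and wild-type (Ptdsr+/+) fibroblast RNA in the other. The comparison used 12 of the 14 arrays. In each range of replicate numbers the knockout was labelled with Cy5 on 3 arrays (replicates 1, 3 and 4, and replicates 7, 8 and 9) and with Cy3 on the other 3 (replicates 2, 5 and 6, and replicates 10, 11 and 12). Replicates 13 (knockout in Cy5) and 14 (knockout in Cy3) belonged to neither range. No strain, age, passage number or kind of deletion is named in the labels, and the series' design speaks of 2 cultures without tying an array to either. The number ranges are therefore not labelled as cultures, and what differed between them (culture, hybridisation, print run or scan) cannot be told apart.

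The ranges were chosen from the way these same arrays correlate with each other. Their difference is therefore a description, given with sizes and standard errors. No p-value of a single gene is printed for it, and no count of genes past a limma threshold is evidence that the ranges differ. Values are given as log2(knockout / wild type) after each array was centred on its median. A negative difference means that the ratio was lower in replicates 7 to 12. The labels do not state the direction of the ratio, and knockout over wild type is its likely reading. If the Cy3 arrays ran the other way, 38 of the 60 named probes apart by at least 1 log2 unit would change the sign of their difference. None of the 200 probes that met that rule (described below) would still meet it. That loss follows from the turn itself, which makes the same direction in both orientations into opposite directions, and is not a result. Because each array gives a ratio, a higher knockout signal and a lower wild-type signal cannot be told apart, and neither can fewer cells of a type and less RNA per cell. The wild-type RNA counts as 1 control sample, and its spread from culture to culture is not known. The ratios carry no signal level, so the presence of fibroblast markers in the cultures could not be checked.

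Jmjd6 encodes a nuclear protein with a JmjC domain. Early work took it for the surface receptor by which phagocytes recognise phosphatidylserine, a lipid that dying cells expose. Fibroblasts build and remodel connective tissue. They secrete collagens, elastin and small proteoglycans, cut them with matrix metalloproteinases, pull on them with actin and myosin fibres, and release chemokines that attract leukocytes. Cultured fibroblasts differ from each other in these programmes with their tissue of origin, density and passage, and a small number of macrophages can persist in primary cultures.

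Of 20355 probes, between 13165 and 19615 had a usable value on an array. Replicates 1 and 2 missed 5805 and 6875 values, against 649 to 2452 on the other arrays. Between 13.7% and 31.6% of an array's values lay on a ratio of whole numbers up to 10, which was used as a stand-in for dim spots because spot intensities were not given. The model was fitted to the 17117 probes with values on at least 4 arrays of each range. The number of arrays limits the precision.

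The arrays fell into 4 groups by range and dye. Over the fitted probes, all 12 pairs of arrays that shared range and dye had a Spearman correlation above 0, with a median of 0.232. All 18 pairs that shared the dye but not the range lay below 0, with a median of -0.072, and so did all 18 pairs of opposite dye within a range, with a median of -0.115. The 18 pairs that shared neither range nor dye all lay above 0, with a median of 0.065. These are correlations across probes, which share the spotted array and are not independent. Within a range the order of the ratios thus turned with the dye, and between ranges it turned again. Among the 1829 probes with all 12 values and none on a small whole-number ratio, the pattern was different. Arrays of the same range and dye had a median of 0.402, and 17 of the 18 pairs of opposite dye within a range were above 0, with a median of 0.139. Pairs from different ranges had medians of -0.015 with the same dye and 0.005 with opposite dyes.

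**Figure D1:**
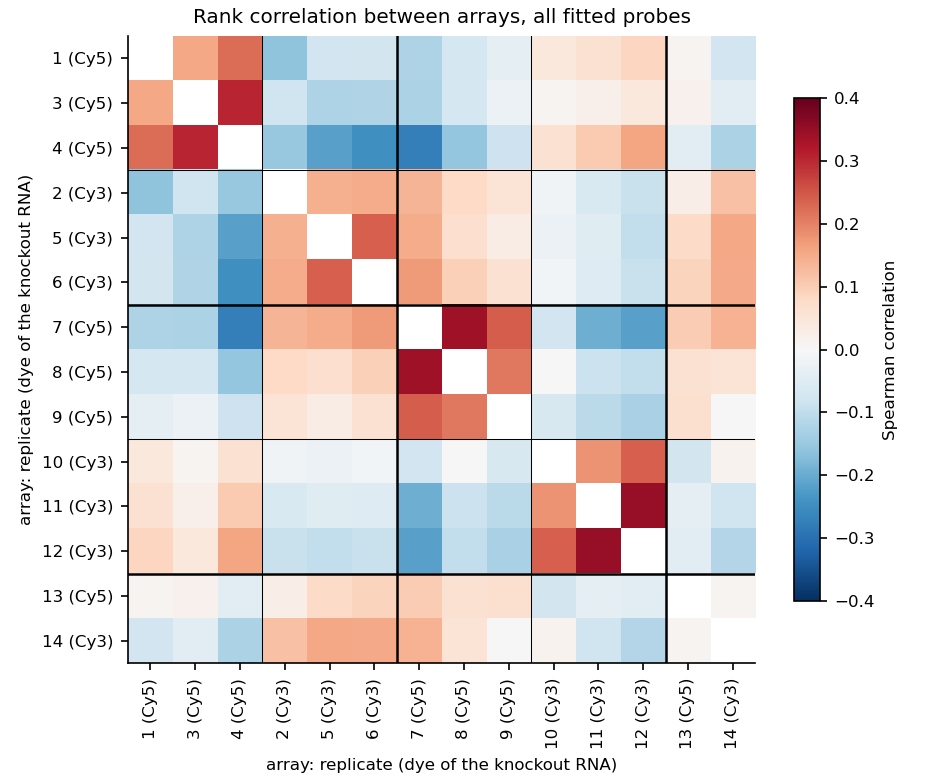
Spearman correlations between the 14 arrays over the 17117 fitted probes, ordered by range and by the dye of the knockout RNA (thin lines part the dyes, thick lines the ranges). The 4 blocks of 3 arrays on the diagonal are above 0, the blocks of opposite dye within a range are below 0 (median -0.115), and the blocks of opposite dye between ranges are above 0 (median 0.065).

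The difference between the ranges was next taken apart by dye. It was computed once from the 6 arrays with the knockout in Cy5 and once from the 6 with the knockout in Cy3, 3 against 3 each, for the 15964 probes with at least 2 values in each of the 4 combinations of range and dye. Across these probes the 2 differences had a Pearson correlation of -0.297, and 37.0% of probes had the same sign in both. Among the 1829 best measured probes the Pearson correlation was 0.030 and Spearman's rho 0.136, while 32.4% of probes had the same sign in both. A difference carried by the RNA has the same sign in both orientations, and a difference carried by the dye has opposite signs. A probe was therefore called apart when, within each dye orientation, every array of replicates 7 to 12 lay beyond every array of replicates 1 to 6 in the same direction. By this rule 152 probes were higher in replicates 7 to 12 (0.952% of 15964) and 193 were lower (1.21%). With a fitted difference of at least 1 log2 unit, 88 were higher (0.551%) and 112 lower (0.702%). Probes apart in opposite directions in the 2 orientations numbered 1592 (9.97%), so these outnumbered the probes apart in the same direction. Among the 1829 best measured probes 251 were apart in opposite directions and 60 in the same direction. The share of probes apart in opposite directions was 12.96% where no value lay on a small whole-number ratio and 7.50% where over 25% of them did. The share apart in the same direction was likewise higher in the first of these sets, 3.16% against 1.71%. The 2 orientations were also offset from each other. The Cy5 difference minus the Cy3 difference, divided by 2, had a median of 0.31 in the first of these sets and -0.44 in the second. The part of this offset in the sign shares, in these counts and in the list medians by orientation below was not tested.

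**Figure D2:**
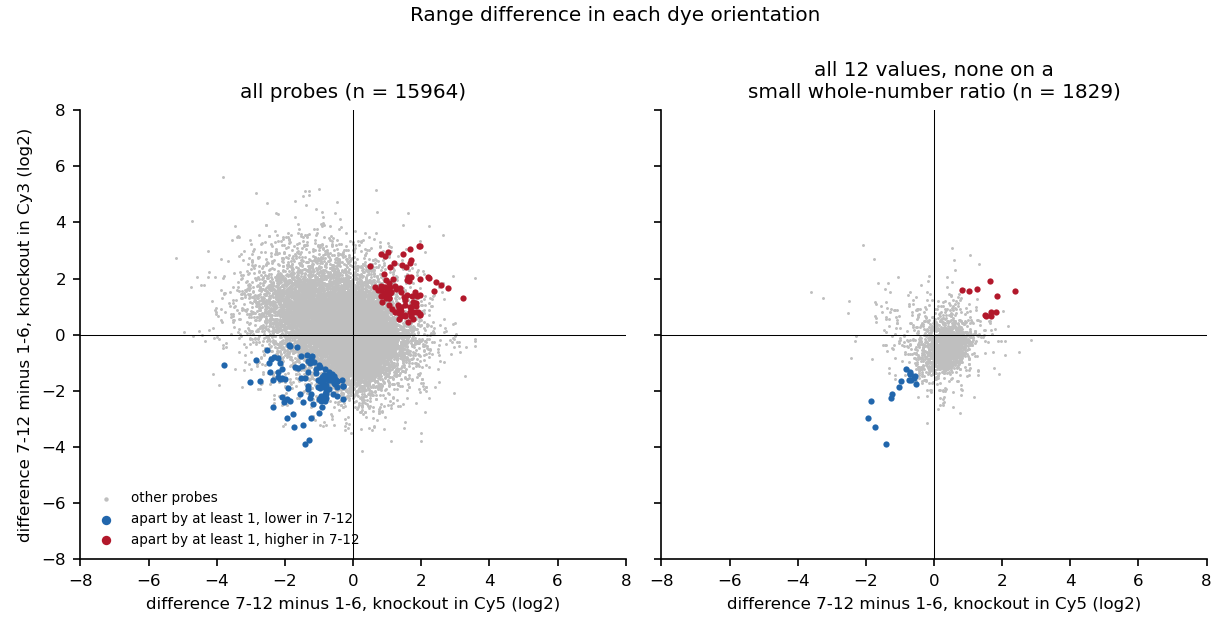
Difference between the ranges (replicates 7 to 12 minus 1 to 6, log2) on the arrays with the knockout in Cy5 (horizontal) and in Cy3 (vertical), 1 point per probe, for all 15964 probes (left) and the 1829 best measured (right). Coloured points are the 88 probes higher and 112 probes lower in replicates 7 to 12 by at least 1 log2 unit in the same direction, which are 11 and 17 probes in the right panel; the grey cloud on the left slopes downward (Pearson correlation -0.297).

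Fitted with dye orientation as covariate, 1 of 17117 probes (0.00584%) had an adjusted p below 0.05 for the range difference by limma, and 1074 had an unadjusted p below 0.05. The rule used this contrast, so nothing is read from the count. The 1 probe was S100a4. At the edge of the size threshold, Rin3 (1.005) and Pced1b (-1.007) lay just inside and Hnrnpa2b1 (-0.996) and Zfp410 (-0.993) just outside.

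S100a4 encodes a calcium-binding protein of motile fibroblasts and is often used as a fibroblast marker. Its log2 ratio in replicates 1 to 6 ran from 0.51 to 1.2 with a median of 0.74, and in replicates 7 to 12 from -2.02 to -1.23 with a median of -1.64. Every array of the first range was above 0 and every array of the second below it, so that the knockout signal exceeded the wild-type signal in one range and fell short of it in the other. The difference was -2.45 ± 0.26 (SE), or 5.45-fold, being -1.93 on the Cy5-knockout arrays and -2.96 on the Cy3-knockout arrays. Replicates 13 and 14, which entered no fit, stood at 1.08 and 0.64, beside replicates 1 to 6.

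Several genes of the extracellular matrix and of cell contact with it lay apart in the same direction as S100a4. Col5a3, a fibrillar collagen chain, ran from 0.25 to 1.03 in replicates 1 to 6 (median 0.81) and from -2.0 to -0.80 in replicates 7 to 12 (median -1.45). Its difference was -2.10 ± 0.28 (SE). Cd44, the receptor for hyaluronan, lay between 0.73 and 0.99 in replicates 1 to 6 and between -1.69 and -0.18 in replicates 7 to 12, a difference of -1.76 ± 0.27 (SE). The ranges did not overlap for either gene, and the sign of the ratio changed between them. Tnc (tenascin C, a matrix glycoprotein of wounds and growing tissue) differed by -1.65 ± 0.31 (SE), from a mean of 0.80 to -0.85. A second Tnc probe differed by -0.996 ± 0.282 (SE) and its ranges overlapped.

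Lrrc15, a membrane protein with leucine-rich repeats found on matrix-producing fibroblasts, and Dkk3, a secreted protein of the Dickkopf family, were the 2 genes for which 2 probes were apart by at least 1 log2 unit. The Lrrc15 probes differed by -1.81 ± 0.39 (SE) and -1.47 ± 0.24 (SE). Both lay above 0 on all of replicates 1 to 6 and below 0 on all of replicates 7 to 12. The Dkk3 probes differed by -1.44 ± 0.26 and -1.17 ± 0.28 (SE), from near 0 in replicates 1 to 6 (medians -0.08 and -0.09) to medians of -1.41 and -1.15. Probes of 1 gene did not in general go together: of 80 other fitted probes of the genes with an apart probe, 43 had the same sign as that probe.

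Slc16a3, a lactate transporter, and Crabp1, a retinoic acid binding protein, also changed sign. Slc16a3 went from a median of 0.80 to -0.50 (difference -1.21 ± 0.24, SE) and Crabp1 from 0.48 to -0.77 (difference -1.31 ± 0.25, SE). For Slc16a3 a second probe, with values on 9 of the 12 arrays, differed by 0.35 ± 0.61 (SE). Cd44, Dkk3, Slc16a3, Crabp1 and Sfrp2 were chosen for description after their values were seen. So were list members that were apart by less than 1 log2 unit, where they are named below, and the chaperone genes Hsp90b1, Calr, Creld2 and Canx.

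Matrix genes also differed in the opposite direction. Eln encodes elastin, the protein of elastic fibres. It ran from -1.26 to -0.14 in replicates 1 to 6 (median -0.59) and from 0.80 to 1.93 in replicates 7 to 12 (median 1.39). All 6 arrays of the first range were below 0 and all 6 of the second above it. The difference was 1.97 ± 0.28 (SE), or 3.90-fold, and replicates 13 and 14 stood at -0.69 and -0.46. Dcn, the small proteoglycan decorin, ran from -1.60 to -1.04 in replicates 1 to 6 and from -0.45 to 0.62 in replicates 7 to 12 (difference 1.36 ± 0.27, SE). Sfrp2, a secreted Wnt antagonist, went from a median of -1.51 to -0.09 on 1 probe (difference 1.47 ± 0.28, SE), while a second probe differed by 0.23 ± 1.05 (SE). For Dcn and Sfrp2 the ratio was thus low in replicates 1 to 6 and near 0 in replicates 7 to 12.

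Of the 51 genes on the list of collagens and structural matrix, 35 had probes in all 4 combinations, 53 probes in all, with a median difference of -0.14 against -0.03 for all probes. The median was 0.19 on the Cy5-knockout and -0.21 on the Cy3-knockout arrays. On this list 2 genes were apart higher (Dcn and Eln) and 3 lower (Col6a2, Thbs2 and Tnc), against 0.952% of all probes higher and 1.21% lower, and 5 probes were apart in opposite directions (9.97% of all probes). Col6a2, a chain of the beaded collagen VI, differed by -1.12 ± 0.33 (SE) and Thbs2, the matricellular thrombospondin 2, by -0.68 ± 0.23 (SE). On the list of matrix proteases and inhibitors, 19 of 35 genes were measured by 27 probes, with a median of -0.30. Mmp3, Ctsd and Timp4 were apart lower, Htra1 was apart higher, and 2 probes were apart in opposite directions. A second Ctsd probe differed by -0.40 ± 0.32 (SE), and other Timp4 probes, with less spread than the apart one (-2.42 ± 0.83, SE), differed by 0.28 ± 0.42 and 0.17 ± 0.31 (SE). On the apart Timp4 probe 6 of 10 values lay on small whole-number ratios, and its ranges overlapped.

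**Figure D3:**
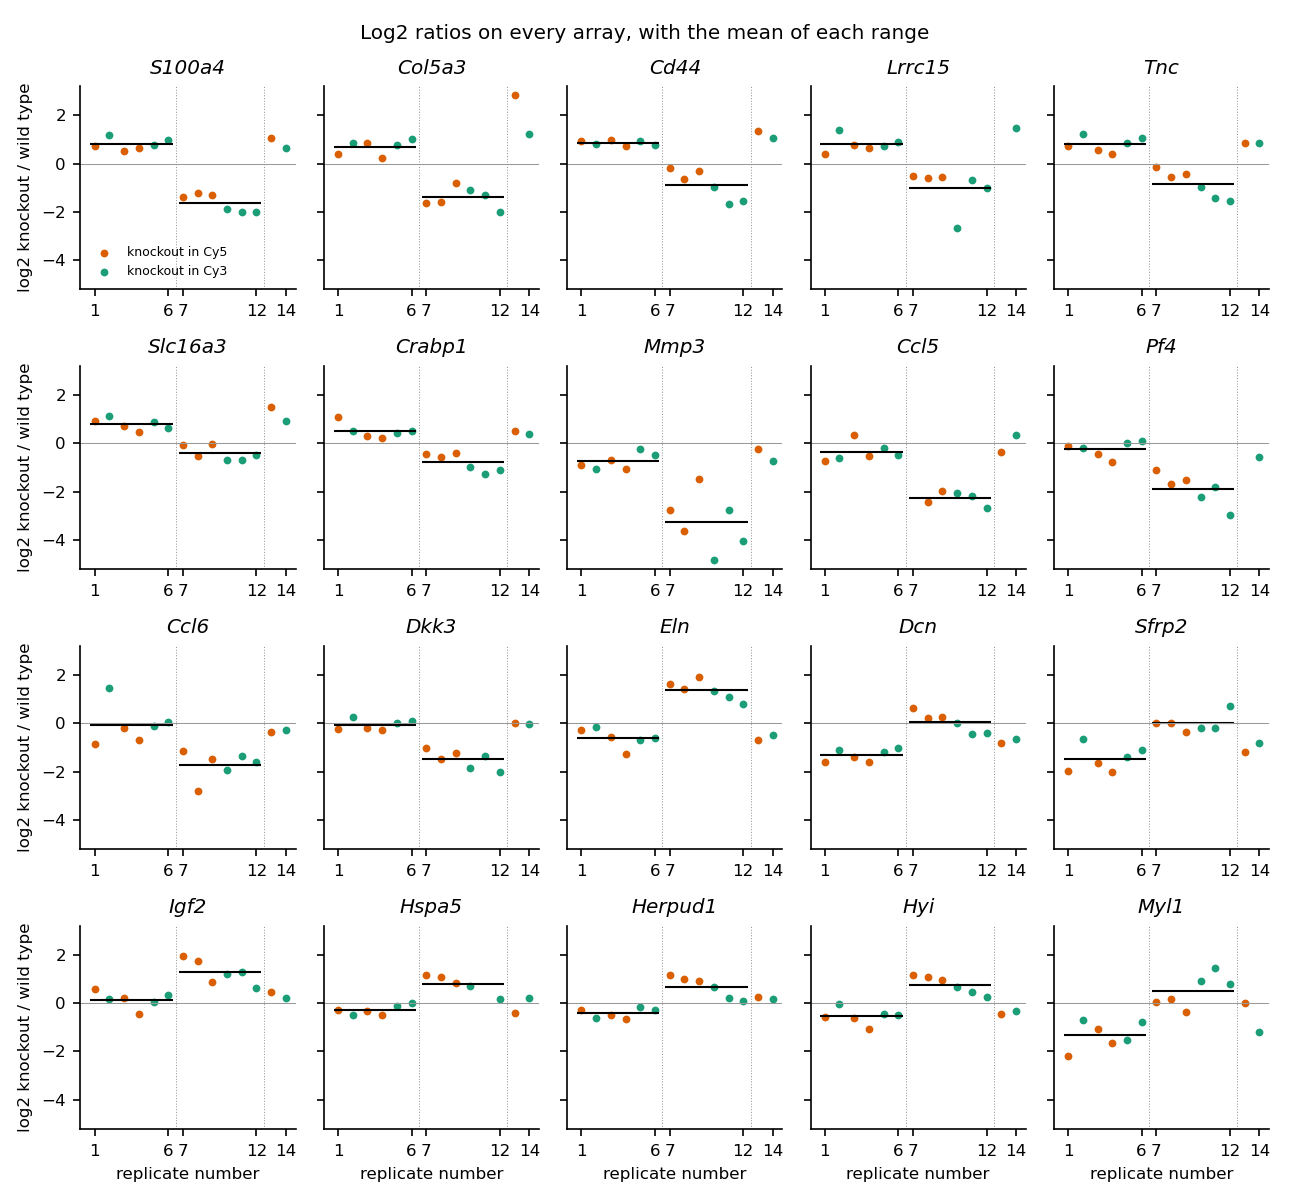
Log2 ratio of knockout over wild type (vertical) by replicate number (horizontal) for 20 genes, coloured by the dye of the knockout RNA, with the mean of each range as a bar and replicates 13 and 14 at the right. The range bars of S100a4 stand at 0.81 and -1.64 and those of Eln at -0.59 and 1.38; replicates 13 and 14 lie on the side of replicates 1 to 6 for S100a4, Col5a3, Cd44, Dkk3 and Eln, among others.

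Mmp3 (stromelysin 1), a protease of many matrix proteins that also activates collagenases, ran from -1.07 to -0.24 in replicates 1 to 6 (median -0.79) and from -4.84 to -1.46 in replicates 7 to 12 (median -3.20). The ratio was below 0 on all 12 arrays, and the ranges did not overlap. The difference was -2.52 ± 0.48 (SE). Mmp13 (collagenase 3) lay between -1.55 and -1.11 in the first range and between -2.78 and -1.41 in the second, a difference of -0.85 ± 0.29 (SE), with ranges that overlapped.

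The start regions of Mmp3 and Mmp13 both hold an AP-1 site, TGAGTCA or TGACTCA, which Fos and Jun proteins bind. The search used the wider pattern TGANTCA (N is any base). Its counts therefore include forms with A or T in the middle, such as that of Ccl9, which are not the usual site. It covered both strands of the 250 bases before the start of each gene in RefSeq's GRCm38.p6 annotation. The pattern was held by 2217 of 32851 such windows (6.75%). Of the 68 windows of named genes 10 held it (14.7%), among them Hspa5, Fgb, Cald1, Mt2 and Myl12a. The range difference on the apart probe was 1.08 for Hspa5, 1.74 for Fgb, 1.87 for Mt2, 2.17 for Myl12a and -0.49 for Cald1. The secreted protease, chemokine, cytokine and membrane genes with a site were all lower in replicates 7 to 12. The pattern thus lay before genes of both directions. The sites of the secreted protease, chemokine, cytokine and membrane genes are shown 5′ to 3′ along the gene. Each has the site in capitals and 6 bases on either side.
Mmp3: caattaTGAGTCAgttttc
Mmp13: aagtggTGACTCAtcacta
Ccl9: tctctcTGAATCAatttga
Il1rn: ctagacTGAGTCAcgcctc
Lrrc15: gtgcggTGACTCAcgaggg
The Mmp3 stretch lies at chr9:7445770-7445788 (plus strand), with the site 46 to 40 bases before the start, and the Mmp13 stretch at chr9:7272473-7272491 (plus strand), 35 to 29 bases before it. The others lie at chr11:83578677-83578695 (Ccl9, minus strand), chr2:24336713-24336731 (Il1rn, plus strand) and chr16:30283295-30283313 (Lrrc15, minus strand). A match is a description of the letters and was not tested as a binding site.

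Chemokine and cytokine genes had the lowest median difference of the 24 lists on the reading knockout over wild type. With the Cy3 arrays turned the list's median would be 0.30 and 17 lists would lie below it, and the medians of 14 of the 24 lists would change sign (alternatives added after the data were seen). Of 37 listed genes 14 were measured by 16 probes, with a median of -0.86 (-0.43 on the Cy5-knockout and -1.30 on the Cy3-knockout arrays). Ccl5, Ccl9 and Il1rn were apart lower and Tnf was apart higher, against 1.21% of all probes lower and 0.952% higher. On the list 1 probe was apart in opposite directions (9.97% of all probes). Ccl5, which attracts T cells and monocytes, ran from -0.72 to 0.37 in replicates 1 to 6 (median -0.49) and from -2.68 to -1.96 on the 5 measured arrays of replicates 7 to 12 (median -2.19). The difference was -1.90 ± 0.29 (SE) and was nearly the same with the knockout in Cy5 (-1.92) and in Cy3 (-1.88). Replicates 13 and 14 stood at -0.36 and 0.37, beside replicates 1 to 6.

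Ccl9, a chemokine of myeloid cells, differed by -2.52 ± 0.72 (SE). Replicate 2 stood at 4.07 and the other 5 arrays of its range between -0.80 and 0.23, while replicates 7 to 12 ran from -2.50 to -0.83. Without replicate 2 the difference was -1.77. Il1rn, the natural antagonist of interleukin 1, differed by -1.75 ± 0.61 (SE), with replicate 12 at -4.84, and by -1.12 without that array. A second Il1rn probe differed by -0.85 ± 0.52 (SE). Tnf, the inflammatory cytokine, was at a mean of -0.77 in replicates 1 to 6 and -0.11 in replicates 7 to 12 (difference 0.74 ± 0.31, SE).

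Chemokine and myeloid genes chosen after their values were seen lay in the same direction. Pf4 (platelet factor 4, a chemokine of platelets and macrophages) ran from -0.76 to 0.10 in replicates 1 to 6 and from -2.96 to -1.11 in replicates 7 to 12, a difference of -1.66 ± 0.33 (SE). Ccl6 differed by -1.68 ± 0.39 (SE), and Ms4a6d, a membrane protein of macrophages, by -1.33 ± 0.32 (SE). None of these ranges overlapped. Lyz2, the lysozyme of macrophages and neutrophils, ran from -1.11 to -0.47 on 4 arrays of replicates 1 to 6 and from -3.04 to -1.39 in replicates 7 to 12, a difference of -1.28 ± 0.34 (SE). A second Lyz2 probe differed by -0.43 ± 0.56 (SE).

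On the list of macrophage and leukocyte markers 1 gene, Lyz2, was apart lower, against 1.21% of all probes, and 1 probe was apart in opposite directions. Of 30 listed genes 16 were measured by 18 probes, with a median difference of -0.73 against -0.03 for all probes. Their median ratio was 0.21 in replicates 1 to 6 and -0.34 in replicates 7 to 12. Of the 18 probes 13 were lower in the second range, against 8311 of all 15964. Msr1, Laptm5 and Tyrobp were among the 5 that were higher, by 1.39 ± 0.60, 1.17 ± 0.76 and 0.95 ± 0.87 (SE). With the Cy3 arrays turned the median would be 0.070. Summed levels of the markers cannot be given from ratios, and the part of other cell types in the chemokine differences was not tested.

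Fibroblasts pull on the matrix through bundles of actin, myosin and tropomyosin. On the list of cytoskeletal and smooth muscle contractile genes, 22 of 32 genes were measured by 32 probes, with a median of -0.24. Of these genes 5 were apart lower (Acta2, Cald1, Tagln2, Tpm1 and Tpm2), against 1.21% of all probes, and 0 higher, against 0.952%. More probes of the list, 6, were apart in opposite directions in the 2 dye orientations, against 9.97% of all probes. With 32 probes, 0 higher is near the general share. Acta2, the smooth muscle actin that marks myofibroblasts, ran from 0.11 to 0.93 in replicates 1 to 6 (median 0.59) and from -1.12 to 0.07 in replicates 7 to 12 (median -0.38). The difference was -1.07 ± 0.29 (SE). A second Acta2 probe, with more spread, differed by 1.07 ± 0.76 (SE), in the opposite direction.

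Tpm2, a tropomyosin of actin filaments, had 2 probes with nearly equal values. Their means were 0.68 and 0.65 in replicates 1 to 6 and -0.11 and -0.15 in replicates 7 to 12, so each differed by -0.80 ± 0.25 and -0.80 ± 0.26 (SE), and 1 of them was apart. Another probe differed by -0.16 ± 0.85 (SE). Tpm1 differed by -1.09 ± 0.48 (SE) on 1 probe, or -0.63 without replicate 1, which stood at 2.67, and by 0.40 ± 0.35 (SE) on another. Tagln2 (transgelin 2) differed by -0.90 ± 0.24 (SE) and Cald1 (caldesmon) by -0.49 ± 0.22 (SE). Lpp, a focal adhesion protein, and Hspb6, a small heat shock protein of smooth muscle, differed by -1.03 ± 0.23 and -1.07 ± 0.30 (SE). A second Lpp probe differed by -0.39 ± 0.25 (SE) and its ranges overlapped. Lpp and Hspb6 were named after their values were seen.

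Of the cell cycle genes, 45 of 66 were measured by 53 probes, with a median of -0.23. Of the probes 37 were lower and 16 higher in replicates 7 to 12, against 8311 lower and 7653 higher of all 15964. Cdk1, the kinase that drives entry into mitosis, ran from -0.15 to 1.63 in the first range (median 0.68) and from -0.92 to -0.18 in the second (median -0.69), and differed by -1.32 ± 0.36 (SE), with -1.31 and -1.33 in the 2 dye orientations. Top2a (topoisomerase II alpha) and Ccne1 (cyclin E1) were also apart lower, by -0.61 ± 0.27 and -0.51 ± 0.26 (SE), and 0 genes of the list were apart higher. Another 3 probes of the list were apart in opposite directions. Among all probes 1.21% were apart lower, 0.952% higher and 9.97% in opposite directions, so 0 higher among 53 probes is near the general share. Nes (nestin, an intermediate filament protein of progenitor cells) differed by -1.02 ± 0.28 (SE). Among immediate early genes Hbegf and Ccn1 were lower, by -0.79 ± 0.26 and -0.89 ± 0.30 (SE), and the list's median was -0.06. Of the 24 probes of that list 4 were apart in opposite directions.

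More probes of endoplasmic reticulum and heat stress genes were higher than lower in replicates 7 to 12, while 3 of the 21 measured genes were apart. When unfolded proteins collect in this compartment, cells induce chaperones and folding enzymes, in part through the ER stress response element, the sequence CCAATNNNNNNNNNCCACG, in which a CCAAT box and CCACG are held apart by 9 bases of any kind. On the list of endoplasmic reticulum and heat stress genes, 21 of 31 genes were measured by 28 probes, with a median of 0.36 (0.51 on the Cy5-knockout and 0.22 on the Cy3-knockout arrays). Of the probes 20 were higher and 8 lower, against 7653 higher and 8311 lower of all 15964. On the list 3 genes were apart higher (Herpud1, Hspa5 and Hspe1, against 0.952% of all probes) and 0 lower (against 1.21%). With 28 probes, 0 lower is near the general share. Of the apart genes Hspa5 alone encodes a chaperone of the endoplasmic reticulum. With the Cy3 arrays turned the median would be 0.35.

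Hspa5 encodes BiP, the main chaperone of the endoplasmic reticulum. It ran from -0.50 to 0.03 in replicates 1 to 6 (median -0.32) and from 0.20 to 1.18 on 5 arrays of replicates 7 to 12 (median 0.85), a difference of 1.08 ± 0.27 (SE). Herpud1, a membrane protein of the degradation of misfolded proteins, was below 0 on all 6 arrays of the first range (-0.64 to -0.17) and above 0 on all 6 of the second (0.11 to 1.2). Its difference was 1.10 ± 0.26 (SE). Hspe1, a mitochondrial chaperonin, differed by 0.60 ± 0.30 (SE). Hsp90b1 (GRP94) differed by 1.13 ± 0.60 (SE), Calr (calreticulin) by 0.53 ± 0.34 (SE) and Creld2 by 1.01 ± 0.90 (SE), none of them apart. Of 3 Canx (calnexin) probes the differences were -0.44 ± 0.66, 0.02 ± 0.28 and 0.50 ± 0.38 (SE).

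The ER stress response element was found in 37 of 32851 upstream windows (0.113%) and in 5 of the 21 windows of the measured list genes. It is shown because it is the known shared element of these chaperone genes, with the fixed letters in capitals and the spacer in lower case, 5′ to 3′ along the gene. In Calr, Creld2 and the second Hsp90b1 site it lies on the opposite strand.
Hspa5: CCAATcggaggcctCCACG
Hsp90b1 first site: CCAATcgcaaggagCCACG
Hsp90b1 second site: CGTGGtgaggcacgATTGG
Calr: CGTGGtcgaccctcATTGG
Canx: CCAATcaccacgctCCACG
Creld2: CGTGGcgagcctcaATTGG
The Hspa5 site lies at chr2:34772025-34772043 (plus strand), 65 to 47 bases before the start, and the Hsp90b1 sites at chr10:86705638-86705656 and chr10:86705533-86705551 (minus strand). Those of Calr, Canx and Creld2 lie at chr8:84847075-84847093 (minus strand), chr11:50325800-50325818 (minus strand) and chr15:88819520-88819538 (plus strand). Of the 5 genes with the element, Hspa5 was apart. No exact match was found in the window of Herpud1, which says only that these letters are not in it.

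Cytosolic ribosomal proteins had a median difference of 0.31 over 82 probes of 55 genes. Of the probes 62 were higher and 20 lower, against 7653 higher and 8311 lower of all 15964. The median was 0.71 on the Cy5-knockout arrays and -0.06 on the Cy3-knockout arrays, against -0.02 and 0.02 for all probes. The part of the offset between the orientations, given above, in this gap was not tested. Rpl30 and Rps24 were apart higher (0.76 ± 0.23 and 0.64 ± 0.24, SE), and a second Rps24 probe differed by -0.14 ± 0.38 (SE). More probes of the list, 9, were apart in opposite directions. Among all probes 0.952% were apart higher and 9.97% in opposite directions. Genes of cholesterol and fatty acid synthesis had a median of 0.42 over 21 probes, 16 of them higher, with 0 genes apart.

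Igf2, the imprinted fetal growth factor, ran from -0.43 to 0.58 in replicates 1 to 6 (median 0.20) and from 0.63 to 1.97 in replicates 7 to 12 (median 1.26), without overlap. The difference was 1.14 ± 0.30 (SE), while the list of imprinted and growth factor genes had a median of 0.09. Muscle genes had a median of 0.28 over 17 probes, with 2 apart higher and 3 apart in opposite directions (0.952% and 9.97% of all probes). The fast myosin light chain gene Myl1 went from a median of -1.30 to 0.49 (difference 1.83 ± 0.29, SE) on 1 probe, and a second probe with wide spread differed by -0.89 ± 1.23 (SE). The fast troponin I gene Tnni2 differed by 2.37 ± 0.59 (SE), with 5 of its 11 values on small whole-number ratios and ranges that overlapped. Of the epithelial markers, Cdh1 (E-cadherin) and Krt8 (keratin 8) were apart higher, by 2.14 ± 0.40 and 0.91 ± 0.33 (SE). For Cdh1 3 of 11 values lay on small whole-number ratios, and the ranges overlapped (-3.23 to 0.47 and -0.42 to 2.87). Its means in the 2 ranges were -2.37 and -0.18 with the knockout in Cy5, and -0.03 and 2.03 with it in Cy3. The list as a whole was mixed, with 8 probes higher, 6 lower and a median of 0.14 (-0.46 on the Cy5-knockout and 0.31 on the Cy3-knockout arrays). Krt19, Krt18, Cldn3, Krt7 and Krt5 were lower, by -1.80 ± 0.58, -1.42 ± 0.77, -1.14 ± 0.72, -0.88 ± 0.62 and -0.62 ± 0.66 (SE), none of them apart. Of genes chosen after their values were seen, Cd34 (a surface glycoprotein of progenitor cells) and Krt17 (keratin 17) were higher by 1.29 ± 0.32 and 1.11 ± 0.29 (SE), and Hyi, a hydroxypyruvate isomerase homologue, by 1.31 ± 0.27 (SE), with a change of sign.

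**Figure D4:**
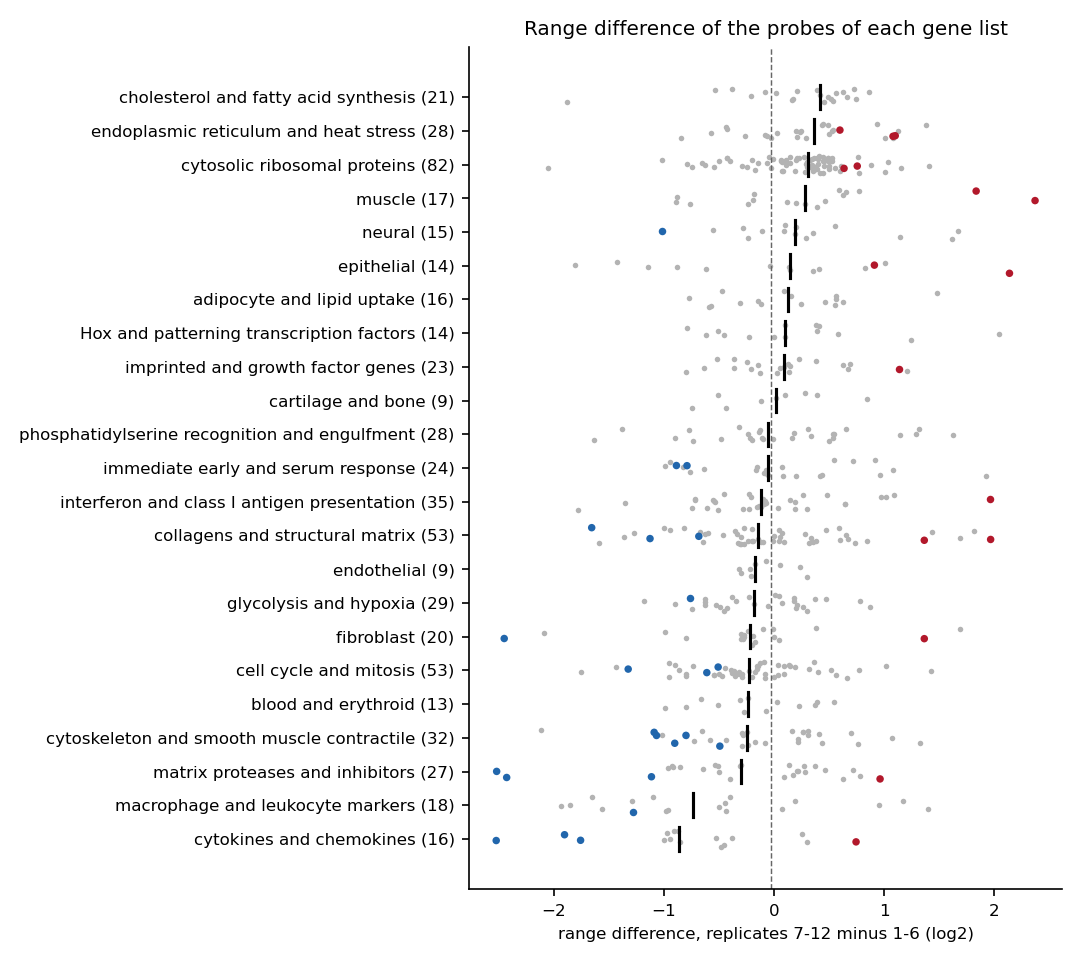
Range difference (replicates 7 to 12 minus 1 to 6, log2) of every probe of 23 gene lists, with the number of probes in brackets, the list median as a black bar and the median of all probes (-0.03) as a dashed line. Blue and red points are probes apart lower and higher in both dye orientations; on the reading knockout over wild type, medians run from -0.86 for cytokines and chemokines (0.30 with the Cy3 arrays turned) to 0.42 for cholesterol and fatty acid synthesis.

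Interferon and class I antigen presentation genes had a median of -0.12 over 35 probes, of which 4 were apart in opposite directions. Among all probes 0.952% were apart higher, 1.21% lower and 9.97% in opposite directions. Stat2, a transcription factor of the interferon response, was the 1 gene apart, by 1.96 ± 0.70 (SE), with replicate 2 at -5.50; without that array it differed by 1.21. Glycolysis and hypoxia genes had a median of -0.18 and 1 gene apart lower, Pgam1 (-0.76 ± 0.25, SE), while 4 of their 29 probes were apart in opposite directions. Fibroblast markers had a median of -0.22 over 20 probes, with S100a4 apart lower, Dcn apart higher and 5 probes apart in opposite directions. Their median was 0.27 on the Cy5-knockout and -0.72 on the Cy3-knockout arrays. The lists of phosphatidylserine recognition, Hox, adipocyte, endothelial, erythroid, cartilage and sex chromosome genes had 0 genes apart, with medians between -0.34 and 0.12.

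The ranking by size took only genes with a probe apart in both dye orientations by at least 1 log2 unit. That probe had at most 3 values on small whole-number ratios and values on at least 10 arrays, which left 62 genes lower and 44 higher. Probes with large differences that were not apart did not enter it. The 15 lowest of these genes were Fhdc1, Ccl9, Mmp3, S100a4, Stx5a, Fyttd1, Col5a3, Apoc4, Nrf1, Ccl5, Prpf40b, Rapgef3, Lrrc15, Prkca and BC048562, with differences from -2.64 to -1.76. The 15 highest were Dnaja3, Myl12a, Cdh1, Eln, Stat2, Fdx1, Carmil1, Mt2, Itgb1bp2, Myl1, Garnl3, Enpp5, Fgb, Mpdz and Jam2, from 2.22 to 1.62. With the Cy3 arrays turned, 20 of these 30 differences would change sign. None of the 30 genes would be apart in the same direction, which the turn fixes in advance. Another fitted probe, not apart, was present for 10 of the genes, and 9 of 13 such probes had the same sign. Stx5a (-2.29) had one at 1.88, Myl12a (2.17) had 2 at -0.44 and 0.02, and Prkca (-1.79) had 2 at 0.35 and -0.96. Of these 30, 7 had a residual standard deviation below 0.5 log2 units: S100a4, Col5a3, Ccl5, Prkca, Eln, Myl1 and Garnl3. Single arrays weighed on several others. Fhdc1, a formin homology protein, stood at 5.37 on replicate 2 and -3.14 on replicate 12, and its difference was -2.64 ± 0.82 (SE), or -1.86 without replicate 2. Enpp5 and Fdx1 fell from 1.77 to 1.11 and from 1.88 to 1.18 without replicate 2. On the protease list, Ctsd went from -1.11 to -0.69 without replicate 3.

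The Jmjd6 probe itself did not separate the ranges. In replicates 1 to 6 it ran from -1.33 to 2.92 with a median of -0.35, and 2 of the 6 arrays (replicates 2 and 6) were above 0. In replicates 7 to 12 it ran from -1.10 to -0.22 with a median of -0.82, and all 6 were below 0. The difference was -0.74 ± 0.59 (SE), or -0.18 without replicate 2. The sources used here do not say if this probe lies within the deletion, and outside it the probe would check nothing.

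Replicates 13 and 14 were not used to choose the ranges' members or to fit them. For each of the 200 probes apart by at least 1 log2 unit, it was asked on which side of the midpoint between the range means of its own dye each of these arrays lay. Of 362 values, 45.6% lay on the side of replicates 7 to 12, against 50.1% of the values of all probes. By array it was 48.0% against 57.0% for replicate 13 and 43.4% against 43.3% for replicate 14. Among the 28 of these probes with all 12 values and none on a small whole-number ratio, 22 of 28 values on each array lay on the side of replicates 1 to 6, so that 21.4% lay on the side of replicates 7 to 12, against 43.9% among all 1829 such probes. That last share was 53.8% for replicate 13 and 34.1% for replicate 14. Of the values of the 30 genes ranked by size, 51.8% (29 of 56) lay on the side of replicates 7 to 12. Among the 60 named probes apart by at least 1 log2 unit, both arrays lay on the side of replicates 1 to 6 for 27 and on the side of replicates 7 to 12 for 10, they were divided for 18, and 5 lacked a value. The 27 include S100a4, Col5a3, Cd44, Tnc, Slc16a3, Crabp1, Mmp3, Ccl5, Ccl9, Ccl6, both Dkk3 probes, Acta2, Cdk1, Eln, Sfrp2 and Igf2. The divided ones include Hspa5, Herpud1, Dcn and Myl1. The 10 on the side of replicates 7 to 12 were Stat2, Prkca, Fyttd1, Carmil1, Ctsd, Dnaja3, BC048562, Fdx1, Enpp5 and Fgb. No test was made on these 2 arrays. Rank correlations over the best measured probes had the same order, with medians of 0.172 (replicate 13) and 0.307 (replicate 14) with replicates 1 to 6 of the same dye, and -0.001 and -0.058 with replicates 7 to 12. Over all fitted probes replicate 13 stood closer to replicates 7 to 12 (0.065 against 0.010) and replicate 14 to replicates 1 to 6 (0.151 against -0.081).

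The mean over both ranges, with range and dye as terms of the model, was a contrast that the choice of ranges did not use. It is an average, which a large ratio in 1 range can carry, as with Ccl5 (-0.35 and -2.26 in the ranges). A call alone therefore does not show a ratio that the ranges share. By limma 10 of 17117 probes (0.0584%) passed an adjusted p below 0.05, 9 lower and 1 higher in the knockout, and 984 had an unadjusted p below 0.05. Range as a term takes the spread between the ranges out of the error, so these p-values measure the spread between arrays of a range, which may be technical. Mmp13 had a mean of -1.75 ± 0.14 (SE), with -1.32 ± 0.17 (SD, n = 6) in replicates 1 to 6 and -2.17 ± 0.53 (SD, n = 6) in replicates 7 to 12, and was below 0 on 12 of 12 arrays (adjusted p = 0.00056). H2-K1, which encodes a class I molecule that presents peptides to T cells, had a mean of -1.63 ± 0.14 (SE) and was also below 0 on 12 of 12 arrays (adjusted p = 0.00056), with -1.36 ± 0.22 (SD, n = 6) and -1.89 ± 0.52 (SD, n = 6) in the ranges.

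The interferon-inducible gene Ifi27 and the lipoprotein lipase gene Lpl had means below 0 in both ranges. Ifi27 stood at -1.07 ± 0.08 (SD, n = 6) in replicates 1 to 6 and -0.92 ± 0.48 (SD, n = 6) in replicates 7 to 12 (mean -0.99, adjusted p = 0.0135). Lpl, which frees fatty acids from lipoproteins, was called on 2 probes with means of -1.12 and -1.18 (adjusted p = 0.0135 and 0.0172). These probes lay at -1.41 and -1.47 in the first range and at -0.84 and -0.90 in the second. Another Lpl probe had a mean of -0.78 (adjusted p = 0.651).

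For Mmp3, Ccl5 and Lyz2 the mean was called although the ranges lay apart, and the means of both ranges were below 0. Their means were -1.997 ± 0.240, -1.30 ± 0.15 and -1.45 ± 0.17 (SE), with adjusted p = 0.0112, 0.0112 and 0.0160. Mmp3 was below 0 on 12 of 12 arrays, Ccl5 on 10 of 11 and Lyz2 on 10 of 10. Without range in the model none of these 3 was called (adjusted p = 0.40, 0.875 and 0.125). The 1 higher probe was Cd24a, a surface glycoprotein of many immature cells, at 1.22 ± 0.33 (SD, n = 6) and 0.44 ± 0.32 (SD, n = 6) in the ranges and above 0 on 11 of 12 arrays (adjusted p = 0.0421). A second Cd24a probe had a mean of 0.28 (adjusted p = 0.854). Probe 9979 had no gene symbol and had a mean of -1.47 (adjusted p = 0.0234). Without range in the model these 2 probes were not called either (adjusted p = 0.302 and 0.904), and Cd24a was called in 5 of 22 alternatives. Mmp13 and H2-K1 stayed called when arrays of the same range and dye were taken as a random block (adjusted p = 0.0052 each), and the other 8 probes did not. With robust and trended eBayes none of the 10 was called (limma adjusted p = 0.676 for Mmp13 and H2-K1). With the Cy3 arrays turned the means of Mmp13 and H2-K1 would be 0.0017 and 0.16 (adjusted p = 0.998 and 0.691), and 0 probes would be called. Related class I and lysozyme genes may add to the H2-K1 and Lyz2 signals, since cross-hybridisation was not measured.

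**Figure D5:**
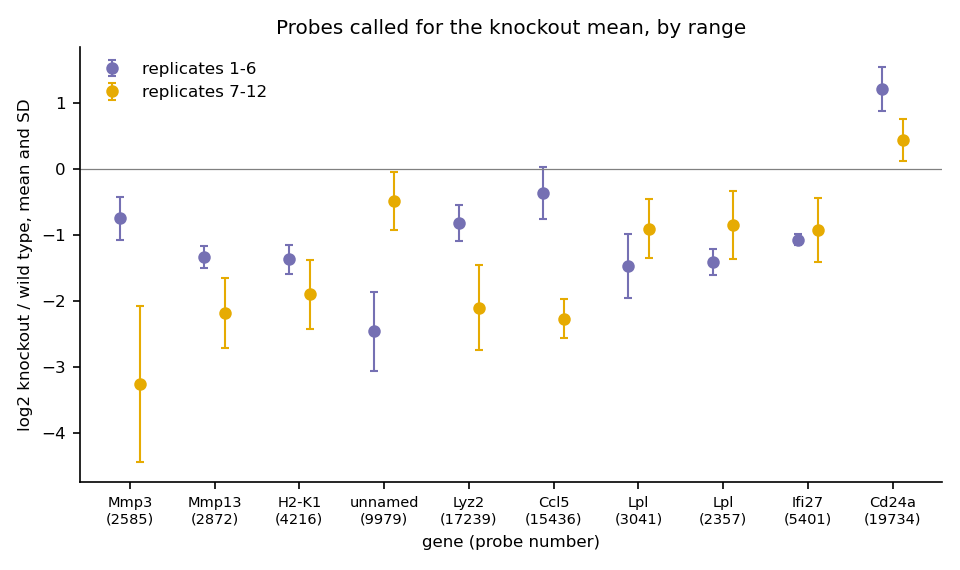
Mean and standard deviation over arrays of the log2 ratio of knockout over wild type in replicates 1 to 6 (purple) and 7 to 12 (yellow) for the 10 probes whose mean over both ranges was called. Of these, 9 lie below 0 in both ranges and Cd24a above 0; Mmp3 (-0.74 and -3.26) and Ccl5 (-0.35 and -2.26) lie farthest apart among the named genes.

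Among the other genes named from earlier results of these data, Ifi205, an interferon-inducible gene, was below 0 on all 11 measured arrays and differed by -0.22 ± 0.27 (SE) between the ranges. Nr4a3, a nuclear receptor of the immediate early response, ran from -2.40 to 2.85 in replicates 1 to 6 and from -1.33 to 2.64 in replicates 7 to 12, and differed by 0.43 ± 0.49 (SE).

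When the probes of a gene were averaged, 8813 genes were fitted. The mean over both ranges was then called for 8 genes (Ccl5, H2-K1, Ifi27, Lpl, Lyz2, Mmp13, Mmp3 and Pf4). If the arrays with the knockout in Cy3 had not been turned to knockout over wild type before deposit, the picture would change: with their sign turned, 934 probes were apart in the same direction by at least 1 log2 unit instead of 200, and the range difference of S100a4 was 0.51.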

How the data were processed

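The authors deposited log2 ratios of 2 channels for 20355 probes on each of 14 arrays. Per the labels' protocols, cDNA made from total RNA was labelled by an indirect method with both dyes in turn. The protocol text mentions organs and pooled control animals, but each channel's own label names fibroblasts and was followed. The scanner, the background correction and any normalization were not given in the sources used here. Each array held 1 repeated extreme, a ratio of 100000 to its 1:1 step, positive with the knockout in Cy5 and negative with it in Cy3. The direction knockout over wild type rests on this.

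Extremes (absolute log2 ratio above 12) were set to missing, and each array was centred on its median. Ratios of whole numbers up to 10 were matched within 0.0011 log2 units. Symbols came from GEO's platform annotation: 14030 probes had 1 symbol, 5 several and 6320 none. limma 3.58.1 in R 4.3.3 (lmFit, eBayes, Benjamini-Hochberg adjustment over all fitted probes, threshold 0.05) was fitted with an intercept, a range term and a dye term. Tables and figures were made with Python 3.11.15. The model was tested on simulated data.

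The ranges, gene lists, members and always-named genes were chosen with earlier results of these data known. Named genes had 1 symbol. The 15 highest and 15 lowest had values on at least 10 arrays, at most 3 of them on small whole-number ratios. They were apart in both dye orientations by at least 1 log2 unit. List members apart by at least 1 log2 unit were named without the limits on arrays and whole-number ratios. Jmjd6, Mmp13, H2-K1, Ifi27, Lpl, Ifi205, Lyz2, Mmp3, Ccl5 and Nr4a3 were always named. Genes named outside these rules are said to be chosen after their values were seen. Promoter windows are RefSeq's, GRCm38.p6. Alternatives were the coded extremes, centring, quantile normalization, filters, the model's terms, eBayes, probe averaging, the sign of the Cy3 arrays and leaving out each array.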

Additional observations from a re-analysis of the deposited data

Results flagged for a closer look

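Several genes changed the sign of their ratio between the ranges, with every measured array of one range on one side of 0 and every measured array of the other on the opposite side. The ranges were chosen on these arrays, so a test of the difference between them on the same arrays supports nothing here. It counts as not tested. Above 0 in replicates 1 to 6 and below 0 in replicates 7 to 12 were S100a4 (-2.45), Col5a3 (-2.10), the Lrrc15 probes (-1.81 and -1.47), Cd44 (-1.76), Tnc (-1.65), Crabp1 (-1.31) and Slc16a3 (-1.21). Below 0 and then above 0 were Eln (1.97), Mt2 (1.87), Jam2 (1.62), Hyi (1.31) and Herpud1 (1.10). Mt2 and Jam2 had values on 5 arrays of replicates 1 to 6, and a second Mt2 probe differed by 0.01 ± 0.77 (SE).

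Single arrays stood far from the other arrays of their range, by Dixon's 95% limit, for some of the 80 probes checked. This limit marks about 1 in 20 groups by chance. On replicate 2 these were Fhdc1 (5.37), Ccl9 (4.07), Ms4a6d (1.16), the Lpl probe that was not called (0.79), Dkk3 (0.50), Cald1 (-0.12), Fdx1 (-4.34) and Stat2 (-5.50). On replicate 1 they were BC048562 (4.23), Tpm1 (2.67), Crabp1 (1.11) and Lpp (1.08). Replicates 1 and 2 are the arrays with the most missing values. On the other arrays they were Lrrc15 on replicate 10 (-2.67), Mt2 on replicate 11 (3.02), the second Sfrp2 probe on replicate 11 (-0.85), and Il1rn (-4.84), Fhdc1 (-3.14) and Sfrp2 (0.71) on replicate 12. The part of depth or print quality in these values was not tested.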

How the results depend on the processing

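Of the 60 named probes apart by at least 1 log2 unit, 0 changed the sign of their range difference without centring, with quantile normalization, with centring on the 1:1 step (added after seeing the data), with probes averaged per gene or without any 1 array. With the Cy3 arrays turned 38 did, S100a4 to 0.51 among them. A sign change is given here as a count, with a value for the 1 called probe alone; this way of reporting was chosen after the sign changes were seen. Turned, the correlation between the orientations was 0.297. At any size 1592 probes were apart in the same direction (934 by at least 1 log2 unit) and 345 in opposite directions. The changed sign of the correlation and the swap of 345 and 1592 follow from the turn itself. After the turn 0 probes were called for the range difference or the knockout mean. The turned knockout means were 0.10 and 0.043 (Lpl), 0.24 (Mmp3), 0.0017 (Mmp13), 0.16 (H2-K1), 0.17 (Ifi27), 0.17 (Ccl5) and 0.27 (Lyz2).

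Against 1 probe called for the range difference, 21 were called with values on all 12 arrays, 7 with dim probes dropped, 7 with probes averaged per gene, 5 with a range by dye term, 2 without the dye covariate, and 0 with quantile normalization, a random block of range and dye, robust and trended eBayes, centring on the 1:1 step, or either dye orientation alone. Leaving out 1 array gave 0 to 2, and 0 without replicate 10. Where limma called 0, between 520 and 3557 probes had an unadjusted p below 0.05 for the range difference, and 1638 (turned) and 608 (robust eBayes) for the knockout mean. The 200 apart probes became 73 with values on all arrays, 95 genes with averaging and 318 at 1.5-fold; leaving out 1 array gave 173 to 245. The 1592 probes apart in opposite directions became 637 with values on all arrays, and 1144 to 2019 without 1 array. The 10 knockout calls became 18 with values on all arrays, 5 without range in the model, 2 with the random block and 0 with robust and trended eBayes (adjusted p for Mmp13 and H2-K1 0.676, limma). Leaving out 1 array gave 3 (replicate 9) to 11. The correlation of -0.297 was -0.142 with coded extremes kept, and -0.306 to -0.229 without 1 array. The share of values of replicates 13 and 14 on the side of replicates 7 to 12 was 38.3% after quantile normalization, against 45.6%. The causes of these changes were not tested. No paired analysis was possible because replicate numbers are not shared between the ranges. Spot intensities were not given, so how far dim spots limit single ratios was not measured.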
